A study of Mus musculus with 4 samples.

Results

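The autophagy machinery was read as 38 genes, chosen by symbol for their known roles, of the 49997 genes in each count table. All 38 were found in the tables, and all 38 passed the filter on low counts that left 19837 genes to test. By role they comprised 16 genes of initiation (5 of the ULK complex, 6 of the lipid kinase complex, 5 of membrane supply), 10 of the conjugation system, 5 of the Atg8 family, 3 cargo receptors and scaffolds, and 4 transcriptional regulators. The RNA came from explants of the mouse aorta-gonad-mesonephros region (AGM), in which blood stem cells arise. The untreated group (2 libraries) and the CCCP group (2 libraries) were both from C57BL/6J embryos, and both were kept for 48 hours on filters in MyeloCult medium with hydrocortisone. The second group received 5 µM CCCP, a protonophore that lets protons leak across the inner membrane of mitochondria, for the same 48 hours. A vehicle for the untreated group and the number of embryos behind a library were not given in the sources used here, and the embryos were E10.5 by the design text but E10.5 and E11.5 by the culture protocol. Nothing in the labels says that libraries came from separate cultures, so p-values measure only the spread between these libraries, which may be technical.

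Autophagy encloses cytoplasm in a double membrane, the autophagosome, and delivers it to the lysosome. The ULK1 kinase complex starts the process, a class III phosphatidylinositol 3-kinase complex built on Beclin 1 marks the forming membrane, and Atg9 vesicles and Atg2 lipid transfer proteins feed it. A ubiquitin-like cascade then attaches Atg8 proteins (LC3 and GABARAP) to phosphatidylethanolamine on that membrane, where they bind cargo receptors. Depolarised mitochondria are a known cargo, and loss of Atg7 or Rb1cc1 is known to harm blood stem cells. The comparison asks which of these transcripts differ between explants with and without CCCP. No measure of the membrane potential was used here.

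The libraries held 37360968 to 48827826 counted reads, and no member had fewer than 148 counts in any library. Exon bases of 11 members are shared with another gene, in each case on the other strand, and reads were counted without strand. Of the 50-base stretches of the transcripts, 36.8% in Becn1 (Cntd1), 30.5% in Atg9a (mainly Gm29253) and 23.1% in Gabarapl1 (1700101I11Rik) also occur in transcripts of other genes, so the levels of these members are uncertain, as is that of Atg4a. Although the labels give the cell type as stem cells, the markers were those of whole tissue. The 9 mesenchymal markers summed to 3213 to 5607 CPM (counts scaled to library size with TMM factors). The 11 haematopoietic markers summed to 177 and 183 CPM in the untreated libraries and to 146 and 155 CPM with CCCP. By gene, 10 of these 11 were tested, and 1 lay above and 1 below both untreated libraries (24.0% and 24.8% of all genes). No marker was at 0 in every library, though Gfi1 was at 0.107 to 0.247 CPM. The 11 hepatic markers summed to 1486 and 872 CPM in the untreated libraries and to 6.28 and 70.2 CPM with CCCP, and all 11 were lower in both CCCP libraries. Erythroid markers (10) summed to 2300 and 2910 CPM untreated and 2577 and 4336 CPM with CCCP, and macrophage markers (11) to 278 and 189 CPM untreated and 274 CPM in each CCCP library. Endothelial (10), skeletal muscle (9), neural (9) and kidney and gonad markers (9) summed to 582 to 744, 307 to 464, 876 to 1076 and 228 to 335 CPM. Their part in the values of the autophagy genes was not tested, and in bulk tissue fewer cells of a type and less RNA per cell cannot be told apart.

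No member passed edgeR's quasi-likelihood test at a Benjamini-Hochberg adjusted p under 0.05 over all genes. That share was 0% for all 19837 genes as well, and the members' adjusted p-values ran from 0.17 for Rb1cc1 to 0.969 for Pik3r4. The log2 fold change (CCCP over untreated) was above 0 for 28 of 38 members, where 49.2% of all genes were above 0. The members' median was 0.14, against -0.01 for all genes. The groups did not overlap for 24 members: CCCP was the higher in 21 (background 24.0% of genes) and the lower in 3 (background 24.8%). At an unadjusted p under 0.05 there were 5 members with higher levels (Gabarap, Map1lc3b, Map1lc3a, Atg4d and Atg101; background 5.45%) and 2 with lower levels (Rb1cc1 and Wdfy3; background 9.16%).

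**Figure D1:**
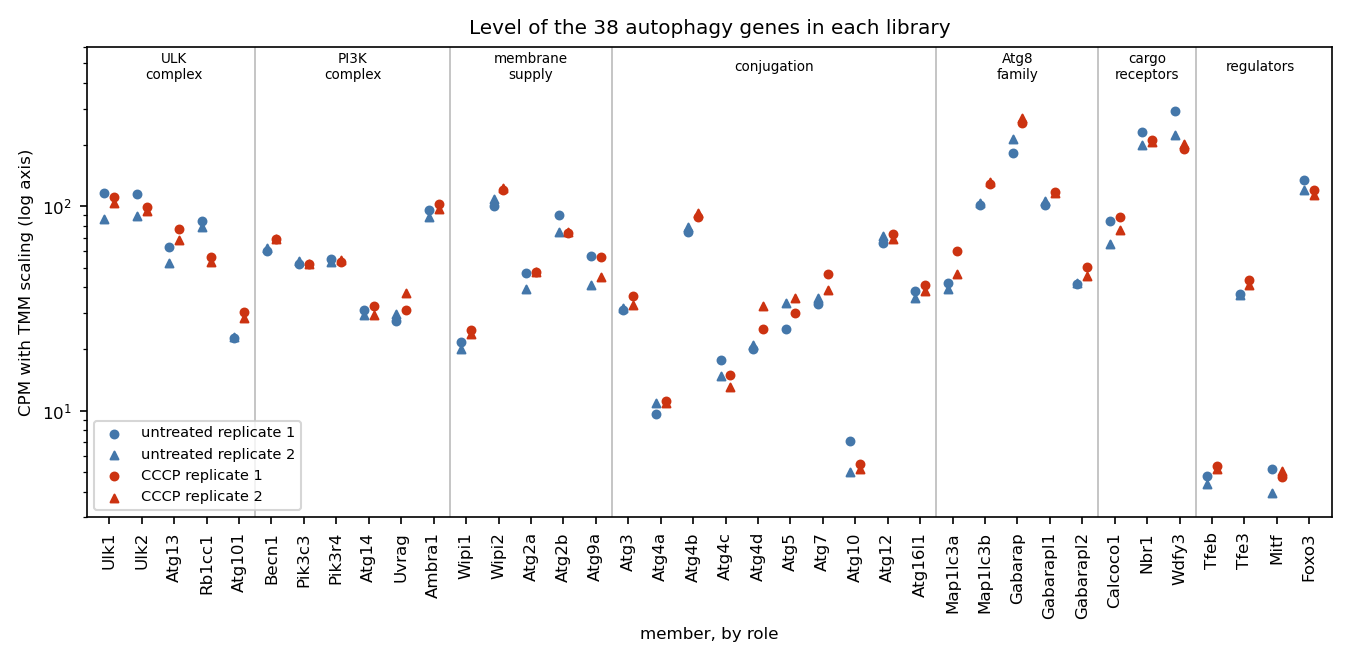
Level of each of the 38 members in each library, in CPM on a log axis, grouped by role; circles are replicate 1 and triangles replicate 2, blue untreated and red CCCP. Most pairs of red points lie slightly above the blue ones, with Rb1cc1 and Wdfy3 the other way round.

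The direction of these counts depended on the scale. On TPM (counts per exon length, scaled to the same sum in each library), 3 members lay above both untreated libraries (background 8.88%) and 9 below them (background 38.1%). The median gene moved by -0.21 on the log2 scale of TPM and the median member by -0.07, and 28 of 38 members lay above the median gene. For a given gene, TPM and CPM differ between libraries only by a factor common to all genes. That count therefore nearly had to repeat the one on CPM and is no separate support. The values below are in CPM unless TPM is named, and are given for untreated replicates 1 and 2 and then for CCCP replicates 1 and 2.

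Fold changes went with exon length over all genes, with a Spearman's rho of -0.36 (19837 genes), and over the members, with -0.66 (38 genes). They also went with GC content, with a rho of 0.38 over 17929 genes and 0.49 over the 38 members. These are descriptions across genes of the same 4 libraries. Each member was therefore set beside the median of all tested genes in its bin, from 10 bins of exon length crossed with 3 of expression (the length median), and from 10 bins of GC content crossed with 3 of expression (the GC median). Of the 38 members, 23 lay above their length median (background 50.0%) and 22 above their GC median (background 50.0%). The median distance was 0.06 from the length median and 0.03 from the GC median. By role, 6 of 16 initiation genes lay above their GC medians, and 9 of 10 conjugation genes. All 5 Atg8 genes, 0 of 3 cargo receptors and 2 of 4 regulators did so. The initiation genes had a median log2 fold change of 0.10, 0.16 with the length trend removed and 0.01 with the GC trend removed. On TPM 0 of them lay above both untreated libraries and 4 below (8.88% and 38.1% of all genes).

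**Figure D2:**
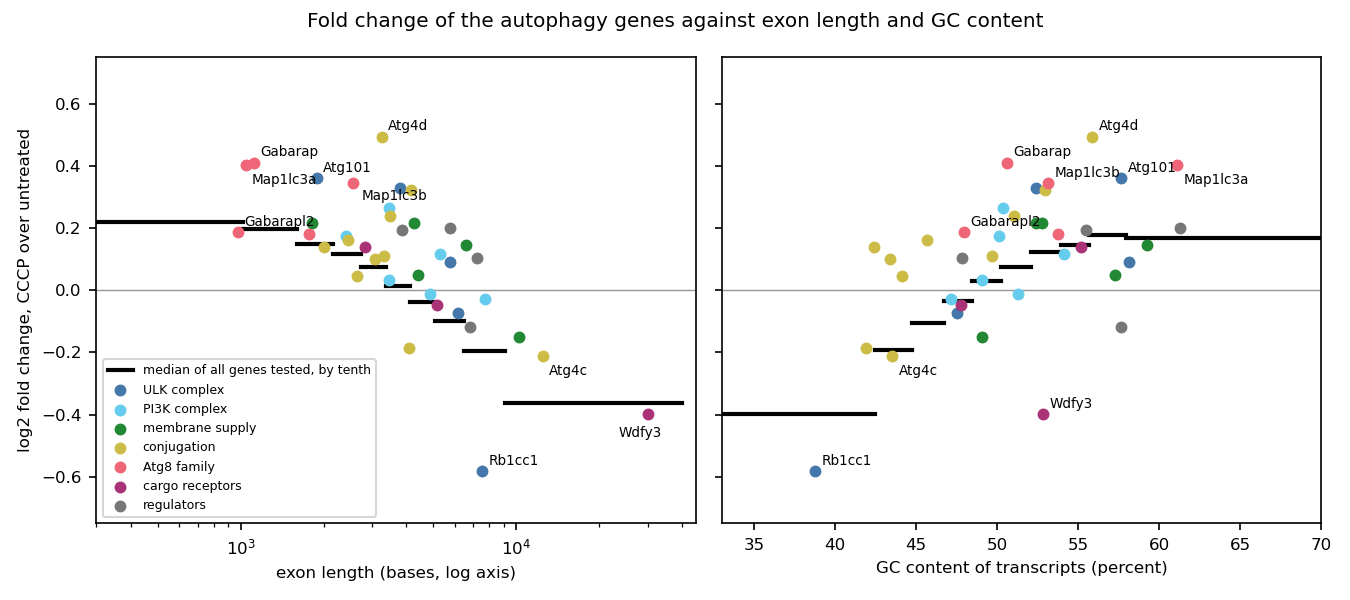
Log2 fold change of the members against exon length (log axis, left) and GC content of the transcripts (right), coloured by role, with black bars for the median of all genes tested in each of 10 bins; the outermost bars are shortened to the axis. The bars fall from 0.22 in the shortest genes to -0.36 in the longest and go from -0.40 at the lowest GC content to 0.17 at the highest, and the members scatter around them.

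Within the ULK complex, Rb1cc1 stood apart. It encodes FIP200, the scaffold that holds the complex together, and lies on chromosome 1 (6214634 to 6276375, mm10, plus strand). Its levels were 84.8 and 78.9 CPM untreated and 56.2 and 53.1 CPM with CCCP. Both CCCP libraries were well below both untreated ones, and the gap exceeded the spread within either group (81.8 ± 4.22 against 54.7 ± 2.20 CPM, SD, n = 2). The log2 fold change was -0.58 (SE 0.11, edgeR adjusted p 0.17), and it ran from -0.62 to -0.52 when 1 library was left out. Rb1cc1 has the lowest GC content of the members, at 38.8%, and 7546 bases of exon. Its length median was -0.10 and its GC median -0.31, and with the GC trend removed from each library its log2 fold change was -0.12. An antisense gene, 4732440D04Rik, shares 324 exon bases with it.

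The other scaffold subunits lay on the opposite side. Atg101, which stabilises Atg13, had 22.6 and 23.0 CPM untreated and 30.3 and 28.3 CPM with CCCP, a log2 fold change of 0.36 (SE 0.14, edgeR adjusted p 0.321). Atg13, which links the kinase to FIP200, had 62.8 and 53.0 CPM untreated and 77.3 and 68.2 CPM with CCCP, a log2 fold change of 0.33 (SE 0.14, edgeR adjusted p 0.347). The groups did not overlap for either gene, and both lay above their length medians (0.18 for Atg101 and 0.11 for Atg13) and GC medians (0.18 for both).

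The kinases themselves did not separate the groups. Ulk1 had 116 and 86.7 CPM untreated and 111 and 104 CPM with CCCP, so that the untreated libraries enclosed those of CCCP. Ulk2 had 114 and 89.4 CPM untreated and 98.5 and 95.02 CPM with CCCP. Their log2 fold changes were 0.09 and -0.07, with SEs of 0.16 and 0.15. Per exon length the kinases were near each other, with Ulk1 at 50.9% to 51.9% of their summed TPM in the untreated libraries and 53.9% to 54.7% with CCCP.

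In the lipid kinase complex the catalytic and membrane-anchoring subunits were nearly level between groups. Pik3c3, the kinase Vps34, had 52.4 and 53.7 CPM untreated and 51.8 and 52.2 CPM with CCCP (log2 fold change -0.03, SE 0.11), so its groups were separate by less than 1 CPM. Pik3r4, the Vps15 subunit, had 55.4 and 53.0 CPM untreated and 53.0 and 54.4 CPM with CCCP (-0.01, SE 0.11).

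Becn1, which encodes Beclin 1, had 60.3 and 62.1 CPM untreated and 69.1 CPM in each CCCP library, without overlap, and a log2 fold change of 0.17 (SE 0.11, edgeR adjusted p 0.487). Its value lay below its length median of 0.22 and above its GC median of 0.09. Becn1 (chromosome 11, 101288258 to 101302286, minus strand) shares 444 exon bases with Cntd1 on the other strand.

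The subunits that direct the complex differed from each other. Uvrag, which replaces Atg14 in the form of the complex that acts on endosomes, had 27.5 and 29.7 CPM untreated and 30.9 and 37.8 CPM with CCCP. Its groups did not overlap, its log2 fold change was 0.26 (SE 0.15, edgeR adjusted p 0.458) and its length median was -0.01. Atg14, which targets the complex to the forming autophagosome, had 31.0 and 29.5 CPM untreated and 32.5 and 29.4 CPM with CCCP, with overlap and a log2 fold change of 0.03 (SE 0.13). Ambra1, an activator of Beclin 1, had 96.1 and 88.3 CPM untreated and 102.8 and 96.9 CPM with CCCP, a log2 fold change of 0.11 (SE 0.11). Its groups did not overlap, but by less than 1 CPM. CCCP replicate 2 set the value of Uvrag, whose log2 fold change without it was 0.11.

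Among the genes of membrane supply, those of the WIPI proteins, which read the lipid made by Vps34, had the highest log2 fold changes. Wipi2, which recruits the conjugation machinery, had 100.3 and 108 CPM untreated and 119.95 and 122 CPM with CCCP, without overlap (log2 fold change 0.22, SE 0.11, edgeR adjusted p 0.418). Wipi1 had 21.8 and 19.9 CPM untreated and 24.8 and 23.6 CPM with CCCP (0.22, SE 0.15, edgeR adjusted p 0.52). The length medians were 0.05 for Wipi2 and 0.18 for Wipi1, and the GC medians 0.18 and 0.12. With the GC trend removed Wipi2 stood at 0.12 and Wipi1 at 0.11, and on TPM the groups overlapped for both.

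The lipid transfer proteins lay on opposite sides of 0. Atg2a had 46.8 and 39.4 CPM untreated and 47.7 and 47.6 CPM with CCCP (log2 fold change 0.14, SE 0.13), while Atg2b had 90.1 and 74.4 CPM untreated and 73.7 and 74.6 CPM with CCCP (-0.15, SE 0.13). Without untreated replicate 2 Atg2a stood at 0.04. Atg2b has the longer exons (10235 bases against 6568), and its length median was -0.27. With the length trend removed Atg2a stood at 0.30 and Atg2b at 0.15, and with the GC trend removed at -0.02 and -0.15. Per exon length, Atg2a took 44.7% and 45.2% of their summed TPM in the untreated libraries and 50.2% and 49.9% with CCCP, so the groups did not overlap. The difference in this share was not tested. Atg9a, the scramblase of the vesicles that seed the membrane, had 56.7 and 41.3 CPM untreated and 56.6 and 44.9 CPM with CCCP. For Atg9a the gap between replicates exceeded the gap between groups (log2 fold change 0.05, SE 0.20).

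**Figure D3:**
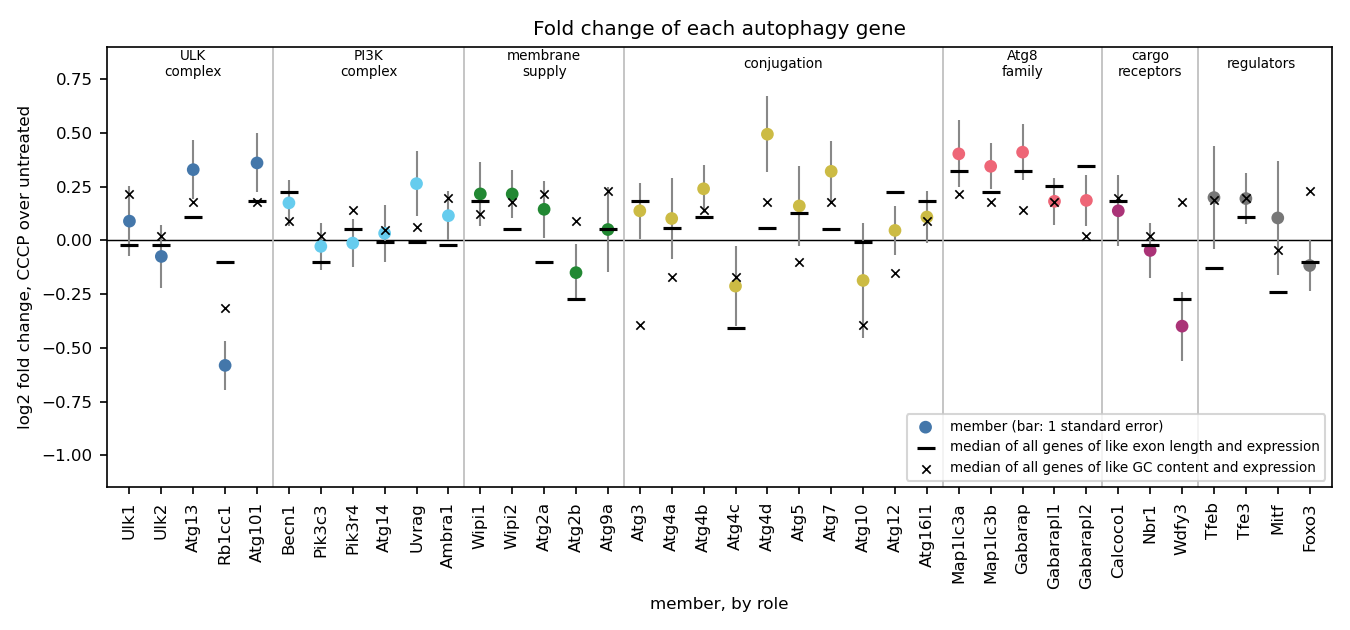
Log2 fold change of each member (points, coloured and grouped by role) with a bar of 1 standard error from edgeR on 2 libraries per group. A dash marks the median of all genes of like exon length and expression, and a cross that of all genes of like GC content and expression; all 5 Atg8 genes lie above 0, and 3 of them lie above their dash.

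Of the 10 conjugation genes, 8 had a log2 fold change above 0 and 6 lay above both untreated libraries. Of all genes, 49.2% and 24.0% did so. None of the 10 lay below both on CPM (24.8% of all genes). On TPM 1 lay above and 3 below (8.88% and 38.1% of all genes). The group's median was 0.12, beside a median length median of 0.08 and a median GC median of -0.13. It stood at 0.07 with the length trend removed and at 0.22 with the GC trend removed, and 9 of the 10 lay above their GC medians.

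The Atg4 proteases trim Atg8 proteins before conjugation and release them afterwards. Atg4d (chromosome 9, 21265205 to 21274837, plus strand) had 19.9 and 20.8 CPM untreated and 24.97 and 32.4 CPM with CCCP, the highest log2 fold change among the members at 0.49 (SE 0.18, edgeR adjusted p 0.303). The CCCP libraries lay above the untreated ones but far from each other (28.7 ± 5.29 CPM, SD, n = 2), and without CCCP replicate 2 the value was 0.29. Its length median was 0.06, and 792 of its exon bases are shared with Kri1 on the other strand.

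Atg4b, the most active of these proteases on LC3, had 74.5 and 78.9 CPM untreated and 88.7 and 92.5 CPM with CCCP, without overlap (log2 fold change 0.24, SE 0.11, edgeR adjusted p 0.377). Atg4a had 9.63 and 10.9 CPM untreated and 11.1 and 10.9 CPM with CCCP, so that the groups all but touched, and 51.2% of the 50-base stretches of its transcripts also occur in the pseudogene Atg4a-ps, so its level is uncertain. Atg4c went the other way, at 17.6 and 14.8 CPM untreated and 14.9 and 13.0 CPM with CCCP (-0.21, SE 0.19), with overlap. It has 12514 bases of exon and a length median of -0.41. Per exon length Atg4b made up 64.6% to 67.2% of the family in every library, and Atg4d 19.1% and 19.0% untreated and 20.2% and 24.3% with CCCP.

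Of the enzymes that drive the cascade, Atg7, the activating enzyme of both ubiquitin-like branches, had 33.2 and 35.3 CPM untreated and 46.5 and 39.1 CPM with CCCP. The groups did not overlap, and the log2 fold change was 0.32 (SE 0.14, edgeR adjusted p 0.358), above a length median of 0.05 and a GC median of 0.18. Without CCCP replicate 1 the value of Atg7 was 0.19. Atg3, which transfers LC3 to the lipid, had 30.9 and 31.8 CPM untreated and 36.3 and 32.7 CPM with CCCP (0.14, SE 0.13), close to its length median of 0.18 and above its GC median of -0.39. With the GC trend removed Atg3 stood at 0.41, and leaving out 1 library gave 0.06 to 0.21. Atg10, which transfers Atg12 to Atg5, was scarce, at 7.07 and 5.03 CPM untreated and 5.46 and 5.18 CPM with CCCP, with overlap (-0.19, SE 0.27).

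Atg5 and Atg12, which Atg10 joins, and their partner Atg16l1 had log2 fold changes smaller than their SEs. With the GC trend removed they stood at 0.27, 0.23 and 0.08, in that order. Atg5 had 25.1 and 33.4 CPM untreated and 29.8 and 35.5 CPM with CCCP (log2 fold change 0.16, SE 0.19), replicate 2 being the higher in each group. Atg12 had 65.8 and 71.8 CPM untreated and 73.0 and 69.0 CPM with CCCP (0.05, SE 0.12). Atg16l1, which carries the Atg12-Atg5 conjugate to the membrane, had 38.3 and 35.6 CPM untreated and 41.0 and 38.6 CPM with CCCP (0.11, SE 0.12), the groups being 0.374 CPM apart.

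All 5 genes of the Atg8 family had higher levels in both CCCP libraries than in both untreated ones, as did 24.0% of all genes. Gabarap (chromosome 11, 69991370 to 69994949, plus strand), the most abundant member per exon length, had 182 and 212 CPM untreated and 254 and 271 CPM with CCCP. Its level was 197 ± 21.2 CPM untreated and 262 ± 12.2 CPM with CCCP (SD, n = 2), a log2 fold change of 0.41 (SE 0.13, edgeR adjusted p 0.272). Map1lc3b (chromosome 8, 121590438 to 121598760, plus strand), which encodes the LC3B protein used as the standard marker of autophagosomes, had 101 and 103 CPM untreated and 129 and 131 CPM with CCCP. Its replicates were within 3 CPM of each other in each group, and its log2 fold change was 0.34 (SE 0.11, edgeR adjusted p 0.272). Map1lc3a had 41.9 and 39.3 CPM untreated and 60.5 and 46.8 CPM with CCCP (0.40, SE 0.16, edgeR adjusted p 0.327), and without CCCP replicate 1 it stood at 0.20.

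The remaining GABARAP relatives had smaller differences. Gabarapl1 had 100.9 and 105 CPM untreated and 118 and 116 CPM with CCCP (log2 fold change 0.18, SE 0.11, edgeR adjusted p 0.474). Gabarapl2, known as GATE-16, had 41.8 and 42.2 CPM untreated and 50.1 and 45.4 CPM with CCCP (0.19, SE 0.12, edgeR adjusted p 0.499). Both stood below their length medians, of 0.26 and 0.35. Once the length trend was taken out, Gabarapl2 was at -0.01 and Gabarapl1 at 0.05, while Gabarap (0.23), Map1lc3b (0.26) and Map1lc3a (0.21) stood above 0.

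The family's median was 0.34 beside a median length median of 0.33, since its exons are short (980 to 2560 bases). Against the GC medians all 5 lay above, with a median distance of 0.17. On TPM, Gabarap (486 and 495 untreated, 572 and 564 with CCCP) and Map1lc3b (118 and 106 untreated, 127 and 119 with CCCP) again lay above both untreated libraries. The other 3 overlapped, and 8.88% of all genes lay above both on TPM. The family summed to 1021 and 967 TPM untreated and 1143 and 1050 TPM with CCCP. Gabarap supplied 47.6% and 51.2% of that sum untreated and 50.0% and 53.7% with CCCP, while Gabarapl1 supplied 16.7% and 16.1% untreated and 14.7% and 14.6% with CCCP.

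**Figure D4:**
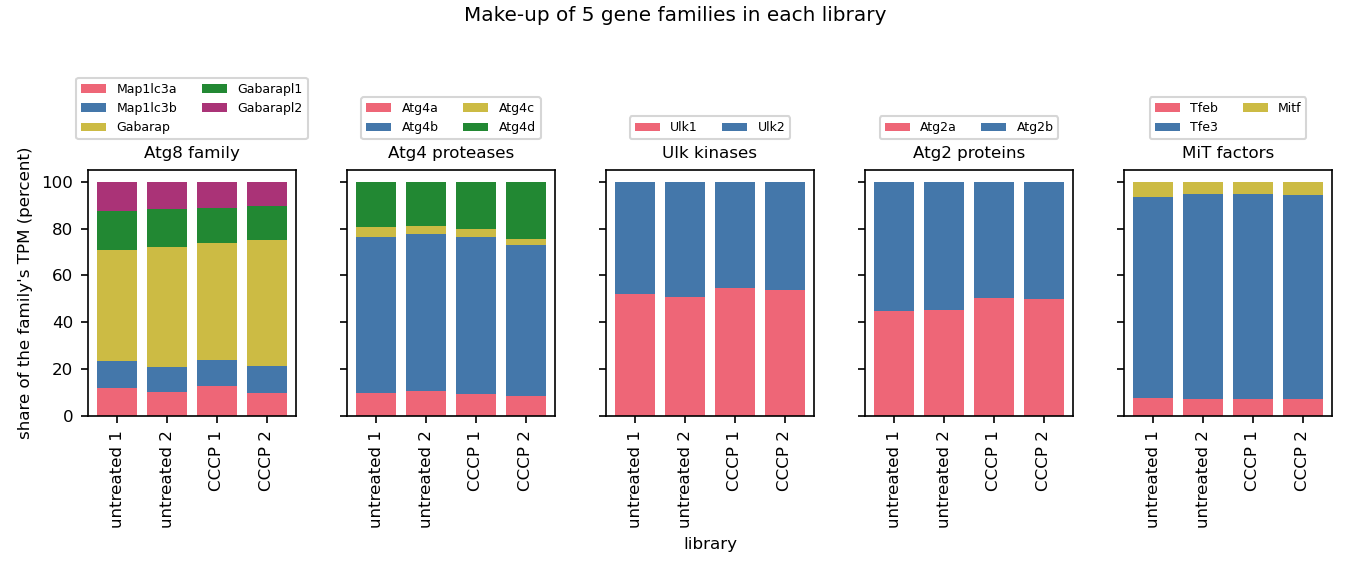
Share of each gene in the summed TPM of its family (percent) in each of the 4 libraries, for the Atg8 family, the Atg4 proteases, the Ulk kinases, the Atg2 proteins and the MiT factors. Gabarap, Atg4b and Tfe3 lead their families in every library, and the Atg2a share is 44.7% and 45.2% untreated and 50.2% and 49.9% with CCCP.

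Promoter windows from RefSeq (GRCm38.p6, 250 bases before to 50 after an annotated start) were found for 31 of the 38 members, in 39 windows. They were searched on both strands for the E-box CACGTG, bound by the MiT factors among others, for its extended form TCACGTGA, the core of the element that TFEB binds in lysosomal genes, for the FoxO motif GTAAACA and for the ATF4 motif TGATGNAAT. The E-box, which overlaps the extended form, was in 4 of 39 windows, or 10.3%, against 7.15% of all 32851 windows, and the extended form in 1 of 39 against 0.974%. Neither the FoxO motif (3.65% of all windows) nor the ATF4 motif (0.965%) occurred in a window of a member. The E-boxes lay in Atg3 (first bases at -94 and -71 from the start, the latter within the extended form), Atg7 (-132), Atg5 (-14) and Atg14 (-1). The windows of Atg3 and Atg7 are printed for the enzymes of the cascade that hold an E-box, and those of Gabarap and Map1lc3b for the Atg8 genes that lay above both untreated libraries on CPM and on TPM and that hold none of the 4 motifs. The Atg7 window is that of an internal start, downstream of the first exon of the gene, which begins at 114643127 on chromosome 6. All are 5′ to 3′ on the gene's strand, and capitals mark the motif letters.
Atg3, chr16:45158579-45158878, plus strand: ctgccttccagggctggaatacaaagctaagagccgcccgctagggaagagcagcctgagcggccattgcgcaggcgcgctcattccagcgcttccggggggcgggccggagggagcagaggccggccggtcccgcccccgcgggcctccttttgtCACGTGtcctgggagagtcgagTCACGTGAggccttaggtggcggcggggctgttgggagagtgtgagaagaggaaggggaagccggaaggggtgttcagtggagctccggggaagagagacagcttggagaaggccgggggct
Atg7, chr6:114670846-114671145, plus strand: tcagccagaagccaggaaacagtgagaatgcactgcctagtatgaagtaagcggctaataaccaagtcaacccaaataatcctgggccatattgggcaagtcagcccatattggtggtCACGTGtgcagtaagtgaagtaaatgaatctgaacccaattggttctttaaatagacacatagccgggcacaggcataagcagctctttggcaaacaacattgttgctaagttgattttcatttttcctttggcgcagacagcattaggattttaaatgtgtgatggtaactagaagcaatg
Gabarap, chr11:69991120-69991419, plus strand: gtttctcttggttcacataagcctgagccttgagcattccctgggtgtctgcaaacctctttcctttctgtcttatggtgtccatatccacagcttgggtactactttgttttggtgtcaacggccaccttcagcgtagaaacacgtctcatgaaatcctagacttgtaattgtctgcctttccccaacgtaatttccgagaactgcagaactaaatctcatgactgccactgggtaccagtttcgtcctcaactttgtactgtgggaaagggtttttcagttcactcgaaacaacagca
Map1lc3b, chr8:121590188-121590487, plus strand: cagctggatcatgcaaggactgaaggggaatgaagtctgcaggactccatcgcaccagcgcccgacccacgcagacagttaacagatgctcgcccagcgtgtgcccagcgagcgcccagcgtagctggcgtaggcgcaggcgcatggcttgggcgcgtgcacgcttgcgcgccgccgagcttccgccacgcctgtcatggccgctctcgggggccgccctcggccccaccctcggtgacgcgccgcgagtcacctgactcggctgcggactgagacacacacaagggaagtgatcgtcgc

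Beside these letters, the log2 fold changes were 0.14 for Atg3 and 0.32 for Atg7, and 0.41 for Gabarap and 0.34 for Map1lc3b. A motif match is a description of the letters and not a bound site.

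The cargo receptors and scaffolds included the longest gene of the set. Wdfy3 encodes Alfy, a scaffold for the removal of protein aggregates and mitochondria, with 30057 bases of exon on chromosome 5 (101832953 to 102072215, minus strand). It had 293 and 223 CPM untreated and 189.7 and 202 CPM with CCCP, so both CCCP libraries lay below both untreated ones (log2 fold change -0.40, SE 0.16, edgeR adjusted p 0.335). Without untreated replicate 1 it stood at -0.18. Its length median was -0.27, and with the length trend removed its value was 0.11. Its GC median was 0.18 and its value with the GC trend removed -0.51, so the corrections moved it in opposite directions.

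Nbr1, a receptor for ubiquitinated cargo, had 232 and 199 CPM untreated and 211 and 205 CPM with CCCP, inside the untreated range (log2 fold change -0.05, SE 0.13). Calcoco1, a receptor for the endoplasmic reticulum, had 85.0 and 65.0 CPM untreated and 88.6 and 76.5 CPM with CCCP (0.14, SE 0.17). Replicate 1 was the higher in both groups for Calcoco1 and Nbr1.

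Of the transcriptional regulators, Tfe3 was by far the most abundant MiT factor, at 86.2% to 87.9% of the summed TPM of Tfeb, Tfe3 and Mitf in the 4 libraries. These factors turn on lysosomal and autophagy genes when they enter the nucleus, a step that transcript levels do not show. Tfe3 (chromosome X, 7762530 to 7775202, plus strand) had 37.1 and 36.7 CPM untreated and 43.3 and 41.2 CPM with CCCP, without overlap (log2 fold change 0.19, SE 0.12, edgeR adjusted p 0.478). Tfeb was low, at 4.79 and 4.36 CPM untreated and 5.36 and 5.15 CPM with CCCP (0.20, SE 0.24). Mitf had 5.15 and 3.96 CPM untreated and 4.74 and 5.07 CPM with CCCP, with overlap (0.10, SE 0.26). Foxo3, a forkhead factor that induces autophagy genes in blood stem cells, had 134 and 119.8 CPM untreated and 120.5 and 114 CPM with CCCP, also overlapping (-0.12, SE 0.12).

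In order of mean TPM over the 4 libraries, Gabarap led with 529, followed by Gabarapl1 with 162. Gabarapl2 (119), Map1lc3b (117) and Map1lc3a (117) came next, and their per-library ranges overlapped. Nbr1 (108) and Calcoco1 (73.2) followed, and at the other end stood Atg4a (8.97), Atg10 (3.68), Atg4c (3.19), Tfeb (2.22) and Mitf (1.72). The ubiquitin-like protein Atg12 (69.3) and its partner Atg5 (32.7) were thus well above the enzyme that joins them, Atg10. Lengths for TPM were taken on the primary chromosomes, since the deposited lengths of Gabarap, Atg2a and Atg4a also count exons on alternate contigs (2244 bases for Gabarap against 1122 on chromosome 11).

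Other genes of the pathway were counted in the same way. Of 77 genes in 5 further lists, 76 were tested and 0 passed in edgeR. At an unadjusted p under 0.05 there were 9 with higher and 3 with lower levels in CCCP (5.45% and 9.16% of all genes), and 51 of the 76 had a log2 fold change above 0 (49.2% of all genes). The groups did not overlap for 32 that were higher and 13 that were lower (24.0% and 24.8% of all genes), and on TPM for 7 and 24 (8.88% and 38.1%). With the replicate block 6 of the 76 passed in edgeR, where 10.7% of all genes did. These were Akt1s1 (edgeR adjusted p 0.0154), Trp53inp1 (0.0278), Lamtor1 (0.0285), Lamtor4 (0.0362), Trp53inp2 (0.0367) and Bcl2 (0.0455). Akt1s1 also passed in edgeR with no filter (adjusted p 0.0416), in DESeq2 with the block (0.0157) and in edgeR with the block after removal of the length trend (0.0088). Calcoco2 had 0 counts in all 4 libraries.

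The list of mTORC1, the kinase complex that holds autophagy off, and nutrient sensing held 30 genes. Both subunits and inhibitors of the complex were among them. Of these 30 genes, 23 were above 0, where 49.2% of all genes were (median 0.13, median length median 0.06). On CPM 14 lay above and 3 below both untreated libraries (24.0% and 24.8% of all genes). On TPM 4 lay above and 7 below (8.88% and 38.1% of all genes). Akt1s1, an inhibitory subunit of mTORC1, had 71.7 and 75.8 CPM untreated and 99.5 and 105 CPM with CCCP (log2 fold change 0.47, SE 0.11, edgeR adjusted p 0.206). Its length median was 0.11. Lamtor1 (0.42, edgeR adjusted p 0.241) and Lamtor4 (0.56, edgeR adjusted p 0.251), subunits of the Ragulator anchor on the lysosome, had short exons and length medians of 0.33 and 0.30. Mtor itself was at 0.02.

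Among 16 genes of autophagosome fusion, 11 were above 0, where 49.2% of all genes were (median 0.13). On CPM 7 lay above and 2 below both untreated libraries (24.0% and 24.8% of all genes). On TPM 1 lay above and 6 below (8.88% and 38.1% of all genes). Vps18 (log2 fold change 0.36, edgeR adjusted p 0.272), a subunit of the HOPS tether, Vamp8 (0.43, edgeR adjusted p 0.278) and Ykt6 (0.34, edgeR adjusted p 0.288), both SNARE proteins, had the smallest p-values. Their length medians were 0.11, 0.30 and 0.22. Among the 11 other cargo receptors tested, 5 were above 0 (median -0.12). Sqstm1, the p62 receptor, had 178 and 179.7 CPM untreated and 224 CPM in each CCCP library (0.32, edgeR adjusted p 0.288). Tollip, an adaptor that binds ubiquitin, was at 0.29 and Tax1bp1, another ubiquitin-binding receptor, at -0.26. The length medians were 0.26 for Sqstm1 and 0.11 for both Tollip and Tax1bp1.

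Among 15 other early genes, Trp53inp1, which binds Atg8 proteins, had 79.8 and 75.5 CPM untreated and 52.1 and 61.9 CPM with CCCP (log2 fold change -0.45, SE 0.13, edgeR adjusted p 0.255). Bcl2, which holds Beclin 1 inactive, had 35.2 and 35.7 CPM untreated and 29.3 and 22.4 CPM with CCCP (-0.46, edgeR adjusted p 0.31). Trp53inp2 was at 0.39. The length medians were -0.24 for Bcl2 and -0.02 for both Trp53inp1 and Trp53inp2. Of the remaining MiT and FoxO factors, Foxo4 was at 0.24, Foxo1 at -0.07 and Tfec at -0.19, none with an edgeR adjusted p under 0.434.

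Whether any member passed depended on the fit. Rb1cc1 was the sole member to pass in DESeq2 (adjusted p 0.0155, background 2.99%) and in edgeR without the filter on low counts (adjusted p 0.0105, background 3.43%). A term for the replicate number, whose meaning the labels do not give, called Rb1cc1 (edgeR adjusted p 0.0054), Gabarap (0.032) and Atg4d (0.0476), with a background of 10.7%. DESeq2 with that term called Rb1cc1 and Gabarap (background 6.89%). The replicate term with the length trend removed called Rb1cc1 and Atg13 (background 7.95%), and with the GC trend removed it called no member (background 4.18%). In each of these 4 fits the share of members that passed (at most 3 of 38, or 7.89%) lay below the share of all genes.

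**Figure D5:**
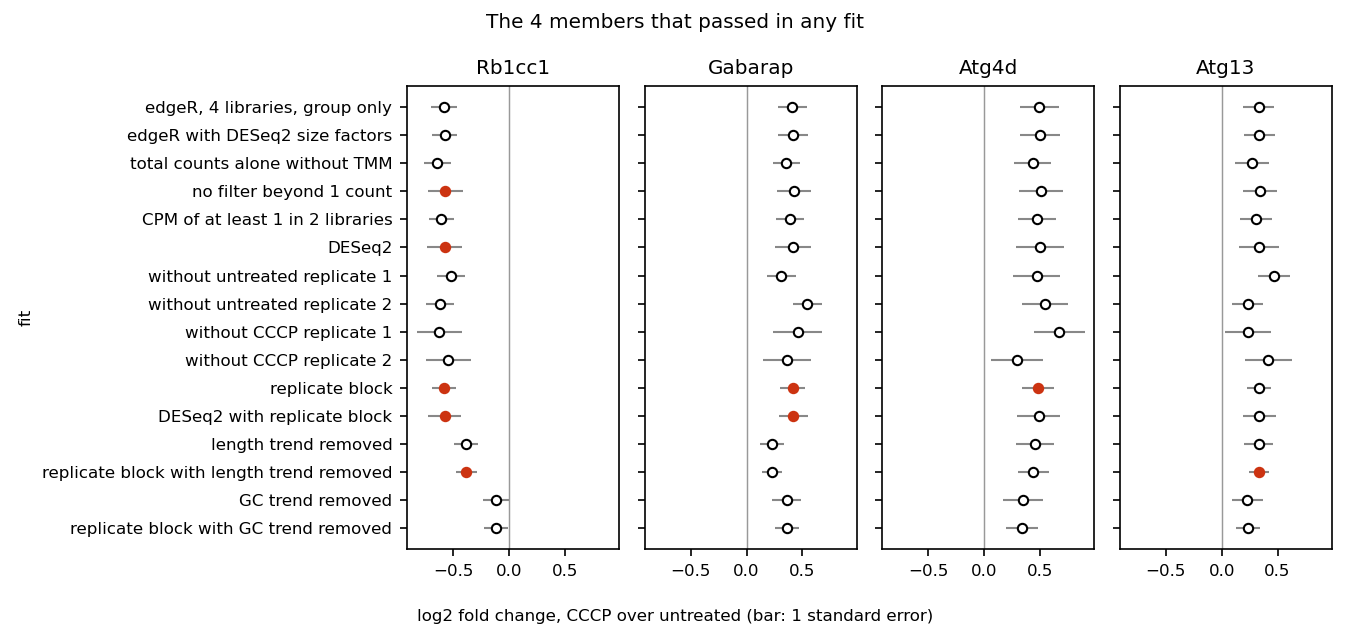
Log2 fold change with 1 standard error (bars) of the 4 members that passed in any fit, over the edgeR fit on 4 libraries and its 15 alternatives; filled red points have an adjusted p under 0.05. Rb1cc1 lies below 0 in each fit, from -0.64 on total counts to -0.12 with the GC trend removed, and the other 3 genes lie above 0 in each fit.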

How the data were processed

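RNA was poly(A)-selected and sequenced from directional libraries, per the labels' protocols. The authors deposited raw read counts per gene, made with featureCounts 2.0.3 on mm10 with NCBI RefSeq genes, per the file headers; reads of a pair were counted singly, strand was not used, and reads shared by overlapping genes were not assigned. The header of the table for untreated replicate 1 names its input UM1, unlike its title, and the sample was taken as titled. FastQC, HISAT2, SAMtools and Subread are listed in the submitters' processing notes. The authors' lengths, other values in the same deposited tables, were recomputed on the primary chromosomes for TPM.

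From the counts, genes were filtered (filterByExpr, minimum count 10, minimum total 15) and tested with edgeR 4.0.16 (quasi-likelihood, TMM, group as the only term, R 4.3.3), with Benjamini-Hochberg adjustment over all 19837 genes and a threshold of 0.05. The standard error (SE) is the absolute log2 fold change divided by the square root of F. CPM are TMM-scaled. GC content came from the GENCODE mouse transcripts and was known for 90.4% of the genes tested and for all 38 members. The script was tested on simulated data. Alternatives were size factors of DESeq2 1.42.0, total counts, other filters, DESeq2, leaving out each library (the lone sample being assumed to vary like the other group), the replicate number as a block, and length or GC trends (lowess span 0.3) removed. An exact permutation test of 2 libraries against 2 cannot go below p = 0.333 (two-sided), so none was run. The floor of detection, 3 counts in a library, equals 0.0599 to 0.0827 CPM.

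The members and the lists of pathway and marker genes were chosen with earlier results of these data known. All 38 members are named, and of each further pathway list the 3 genes with the smallest p and any that passed in a fit. Mtor and Calcoco2 fall outside that rule and were chosen after their values were seen, as were the 4 promoters printed.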

Additional observations from a re-analysis of the deposited data

How the results depend on the processing

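The number of genes that passed, 0 in edgeR on 4 libraries, was also 0 with DESeq2 size factors, total counts, a CPM filter, and the length or GC trend removed. It was 1107 with no filter beyond 1 count, 594 in DESeq2 and 1 to 34 when 1 library was left out. With the replicate block it was 2118, with DESeq2 and the block 1367, and with the block and the length or GC trend removed 1577 or 829. The cause was not tested. Of the members, 1 passed with no filter, 1 in DESeq2, 3 with the replicate block, 2 with DESeq2 and the block and 2 with the block and length. Same-numbered libraries deviated together (r = 0.36 over 19837 genes), but there are only 2 pairs and the labels do not say what the number marks, so they were not treated as paired. The members' median log2 fold change stayed between 0.08 and 0.18. On TPM, an alternative chosen after seeing the data, 3 members lay above and 9 below both untreated libraries (8.88% and 38.1% of all genes). On total counts 15 lay above and 6 below. The share of all genes on that scale was not computed, so these counts cannot be read as a rise or a fall.

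Of the 38 members, 19 kept 1 sign in every fit, 18 higher and Rb1cc1 lower. Signs turned for the others, none past the threshold. With the length trend removed the values were -0.032 for Atg12, 0.15 for Atg2b, 0.13 for Atg4c, 0.048 for Foxo3, -0.012 for Gabarapl2, 0.042 for Nbr1, 0.18 for Pik3c3, 0.063 for Pik3r4, 0.064 for Ulk2 and 0.11 for Wdfy3, and with the block as well -0.032, 0.15, 0.13, 0.048, -0.014, 0.044, 0.18, 0.062, 0.069 and 0.10. With the GC trend removed the values were -0.0095 for Ambra1, 0.11 for Atg10, -0.022 for Atg2a, 0.00061 for Atg4c, -0.11 for Atg9a, 0.031 for Pik3c3 and -0.072 for Ulk1, and with the block as well -0.0085, 0.12, -0.019, 0.0012, -0.099, 0.031 and -0.060. With no filter beyond 1 count the value was 0.00057 for Pik3r4, and on total counts -0.0098 for Atg12, -0.024 for Atg14 and -0.0092 for Atg9a. Leaving out 1 library gave -0.39 to 0.091 for Atg10, -0.0069 to 0.13 for Atg12, -0.043 to 0.10 for Atg14, -0.26 to 0.0033 for Atg2b, -0.025 to 0.40 for Atg5, -0.14 to 0.31 for Atg9a, -0.023 to 0.35 for Calcoco1, -0.053 to 0.32 for Mitf, -0.14 to 0.077 for Nbr1, -0.037 to 0.0081 for Pik3c3, -0.031 to 0.027 for Pik3r4, -0.084 to 0.32 for Ulk1 and -0.22 to 0.12 for Ulk2. The members' SEs in edgeR on 4 libraries were 0.11 to 0.27.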
